A study of Mus musculus with 6 samples.

Results

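Glutamate receptors and the proteins of the postsynaptic density were read as 40 genes of the 24421 in the count tables. They were chosen by symbol: the subunits of AMPA, NMDA, kainate and delta receptors, 4 metabotropic receptors, and the scaffolds and trafficking proteins that hold these receptors at the synapse. The libraries came from cerebellar tissue of mice 1 year old, microdissected to hold the layer of Purkinje neurons and the molecular layer. There were 3 libraries of wild type mice (WT) and 3 of STIM1 knockout mice (KO), which the series calls biological replicates. STIM1 is the calcium sensor of the endoplasmic reticulum that opens Orai channels when the store is empty. Which exons were deleted, in which cells, and on which strain is not in the labels. The samples are labelled Purkinje cells, but both layers also hold interneurons, glia and the axons of granule cells.

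AMPA receptors carry most fast excitatory current in the brain, and NMDA receptors admit calcium when glutamate and depolarisation coincide. In the molecular layer, granule cell axons and climbing fibres release glutamate onto Purkinje cell dendrites, where AMPA receptors carry the fast response and metabotropic and delta receptors act beside them. MAGUK proteins such as PSD-95 bind receptor tails, SAPAP proteins (the Dlgap genes) bind MAGUKs, and Shank and Homer proteins link this scaffold to metabotropic receptors, internal calcium stores and actin.

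Which strand was counted decides what a count under a gene's name means here, and the NMDA receptor gene Grin1 shows this most plainly. Grin1 encodes the GluN1 subunit, required in every NMDA receptor. It lies on the minus strand of chromosome 2 (25291181 to 25319187, GRCm38), and Grin1os, annotated as its antisense RNA, lies on the plus strand (25291220 to 25298925). They share 1307 bases of exon. Exon 14 of 20 of the transcript Grin1-201, chr2:25297148-25297296, lies wholly inside exon 4 of Grin1os, as do 7 Grin1 coding exons in all. The same 149 bases are given on both strands, from GENCODE transcripts, to show that a read from this stretch belongs to either gene by its strand alone. The capitals mark the 27 bases of the channel gate motif in the third membrane segment of GluN1, and their complement.
Grin1, minus strand: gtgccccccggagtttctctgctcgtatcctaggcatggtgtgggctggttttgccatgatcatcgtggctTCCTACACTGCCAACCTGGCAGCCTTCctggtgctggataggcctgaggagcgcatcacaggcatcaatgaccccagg
Grin1os, plus strand: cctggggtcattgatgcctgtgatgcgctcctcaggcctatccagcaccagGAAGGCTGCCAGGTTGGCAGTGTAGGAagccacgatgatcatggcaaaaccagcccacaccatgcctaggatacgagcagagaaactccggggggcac

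The row named Grin1os held far more counts than the row named Grin1 in every library. Listed for replicates 1 to 3, as throughout, Grin1 had 32, 26 and 24 counts (WT) against 41, 13 and 21 (KO). Grin1os had 7381, 7111 and 7543 counts (WT) against 8923, 8127 and 6711 (KO), or 218 to 625 times the count of Grin1. Grin1os averaged 10800 ± 225 CPM (WT) against 11400 ± 742 CPM (KO; SD, n = 3 each), and its log2 fold change (KO over WT) was 0.07 with a standard error (SE) of 0.11. The genotypes overlapped for both genes. CPM stands for a count scaled to the library total in genes, corrected by the TMM factor.

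Other receptor and scaffold genes also differed in count from their partners. Shank1, a scaffold of the deeper postsynaptic density, shares 339 bases of exon with 1700008O03Rik and had 51, 66 and 50 counts (WT) against 63, 42 and 55 (KO). The partner had 134 to 195 counts. Homer3, the Homer protein of Purkinje cell spines, had 301 to 390 counts, and Ddx49, an RNA helicase gene that shares 874 bases with it, had 8510 to 13636. In the pair of Grin3b, a glycine-binding NMDA receptor subunit, the receptor row held more, with 164 to 239 counts. Tmem259, a membrane protein gene that shares 1059 bases with it, had 3 to 13. The sources used here give neither the strand setting nor whether the kit marks strand. Whether the counts under these symbols come from the named gene or from its partner was not tested, and the same doubt touches every level given below. Over the whole series 98.76% to 98.84% of uniquely aligned reads were assigned to no gene, and Tsix, transcribed opposite to Xist, had 2987 to 3265 counts against 79 to 139 for Xist in the 4 libraries that lack Y-linked counts.

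**Figure D1:**
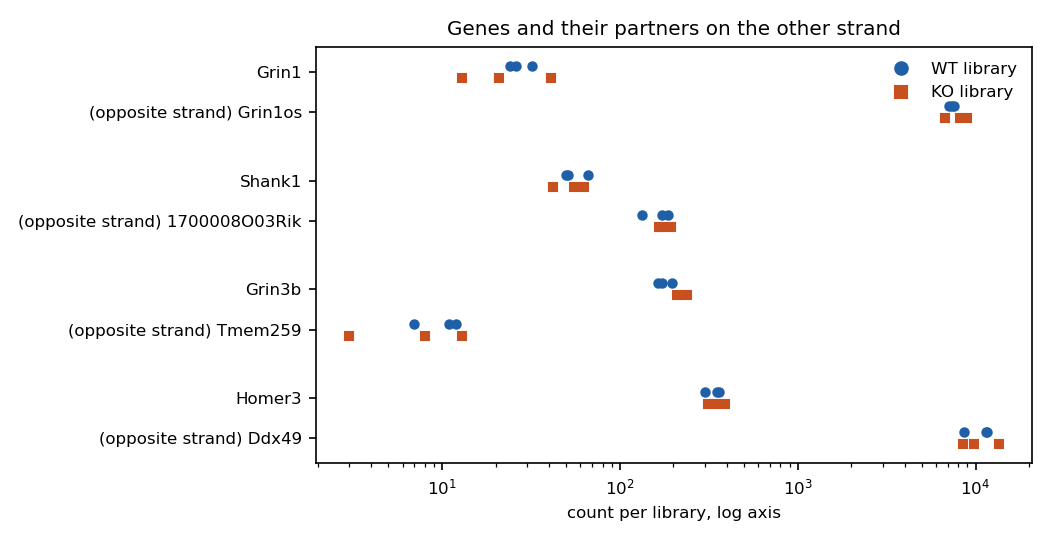
Counts per library (x, log axis) of 4 receptor or scaffold genes and of the gene that shares exon with each on the other strand (y), for the 3 WT (circles) and 3 KO (squares) libraries. Grin1os lies between 6711 and 8923 counts and Grin1 between 13 and 41, while Tmem259 lies below Grin3b.

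Among the 40 members, 9 (22.5%) overlap the exons of an oppositely transcribed gene by 50 bases or more, against 45.9% of the 5124 tested genes found in the annotation. For 2 of the 9 the partner has a row in the count tables. The other 31 members have no annotated overlap of that length, and from which strand their counts came was not tested.

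Few reads were counted in genes: 645994 to 764839 per library, of 52452927 to 62498451 uniquely aligned reads. All 40 members together had 813 to 1086 counts. A single count was worth 1.27 to 1.58 CPM, and where a gene had 0 counts the limit is 3 counts, 3.81 to 4.75 CPM. Such limits cover counting error only. The lower limit on counts used for testing was passed by 19 members and by 5320 genes in all, and 21 members stayed below it, with at most 52 counts over the 6 libraries. Stim1 itself, the targeted gene, had 7, 21 and 3 counts (WT) against 4, 3 and 2 (KO), which is too few to check the genotype, and the deleted exons are not known here.

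No member passed the test of KO against WT. By edgeR's quasi-likelihood test with Benjamini-Hochberg adjustment over all 5320 genes, 0 members and 0 genes (0%) passed at 0.05, and Dlg4 had the lowest adjusted p of the members, 0.916. At an unadjusted p under 0.05 there was 1 member of 19, Dlg4 (5.26%), lower in KO, against 4.62% of all tested genes in either direction and 3.05% lower in KO. With no filter on low counts 2 of 38 members, Dlg2 and Dlg4, passed that unadjusted threshold, against 3.86% of 16540 genes. DESeq2 and limma-voom also called 0 members, with 1 and 2 at an unadjusted p under 0.05. The estimates leaned to lower values in KO: 15 of 19 tested members lay below 0 against 49.8% of all tested genes, and their median log2 fold change was -0.13 against 0.0017 over all tested genes. The WT and KO libraries did not overlap for 3 tested members (15.8%), Gria1, Dlg2 and Dlg4, all lower in KO, against 10.7% of all tested genes in either direction and 6.13% lower in KO. No tested member was higher in KO without overlap, against 4.61% of all tested genes.

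That lean rested unevenly on the libraries. KO replicate 2 was the lowest of the 6 libraries for 9 of the 19 tested members and KO replicate 3 for 5, whereas KO replicate 1 was lowest for 2. Relative to the mean of the 6 libraries, the median member lay at 0.12, 0.18 and 0.063 (log2) in WT replicates 1 to 3 and at 0.026, -0.23 and -0.11 in KO replicates 1 to 3. Without KO replicate 2 the number of members below 0 was 11 of 19, beside 50.5% of all tested genes, and the members' median log2 fold change was -0.15. Without KO replicate 1 it was 15 of 19, beside 51.5% of all tested genes, and the members' median was -0.27. With library sizes taken as all uniquely aligned reads, the median of all tested genes moved to -0.053 and that of the members to -0.17. Members without an opposite-strand partner numbered 14 among those tested, with 10 below 0 and a median of -0.15, beside 57.9% below 0 and a median of -0.057 for the 2772 tested genes without a partner.

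**Figure D2:**
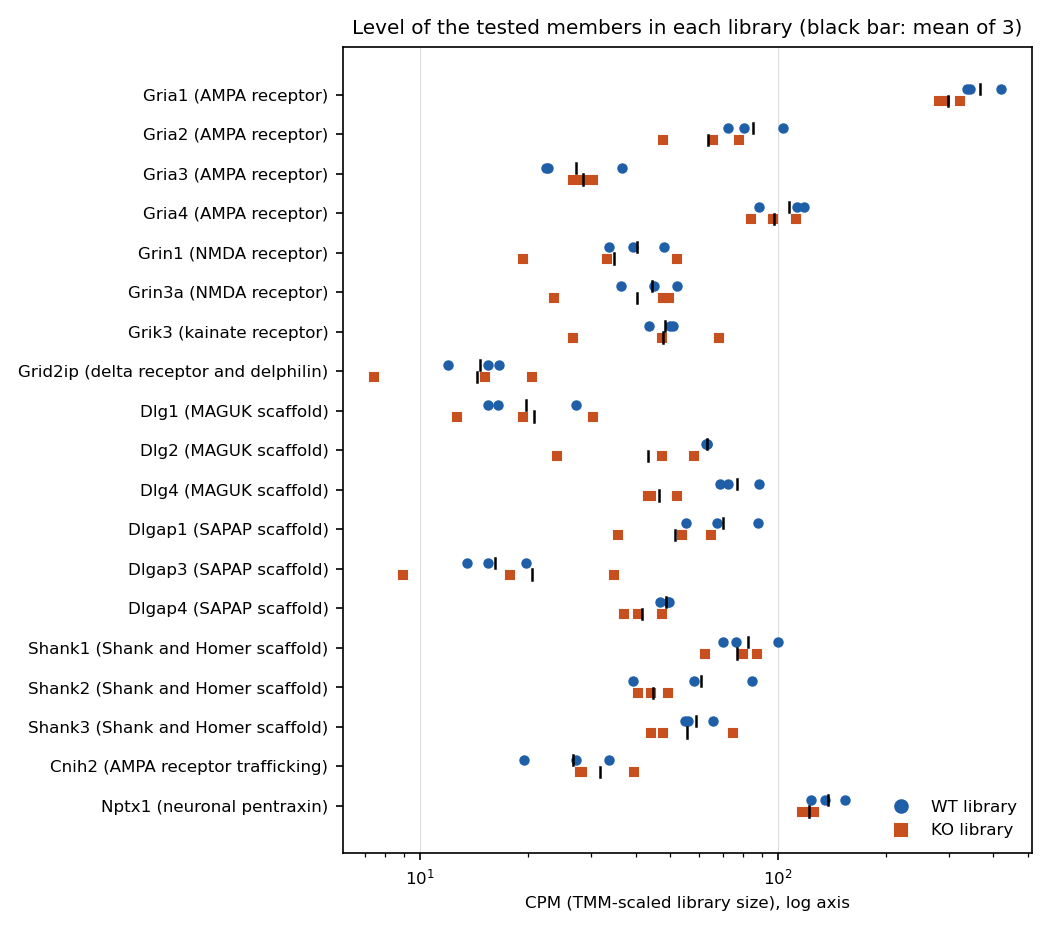
CPM of the 19 tested members (x, log axis) in each of 3 WT (circles) and 3 KO (squares) libraries, with black bars for group means. Gria1 is the most highly counted member at 282 to 419 CPM, and the KO squares lie left of every WT circle for Gria1, Dlg2 and Dlg4.

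AMPA receptor subunits held 38.5% of all counts in the members. Gria1, which encodes GluA1 (chromosome 11, 57011387 to 57330244, plus strand), had 225, 277 and 245 counts (WT) against 254, 189 and 185 (KO). These were 337, 419 and 345 CPM in WT and 323, 282 and 293 CPM in KO, so that all KO libraries lay under all WT libraries, though KO replicate 1 lay close to WT replicate 1. The means were 367 ± 45.1 CPM (WT) against 299 ± 21.2 CPM (KO; SD, n = 3 each), and the log2 fold change was -0.29 (SE 0.14, 95% interval -0.59 to 0.0049, unadjusted p 0.0535, edgeR adjusted p 0.987). Without WT replicate 2 it was -0.19.

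Gria2 encodes GluA2, the subunit that keeps AMPA receptors nearly impermeable to calcium. It had 69, 48 and 57 counts (WT) against 52, 32 and 49 (KO), or 85.4 ± 16.0 CPM and 63.8 ± 15.1 CPM (SD, n = 3 each), with a log2 fold change of -0.42 (SE 0.23, edgeR adjusted p 0.987). KO replicate 3, at 77.6 CPM, lay above WT replicate 2, at 72.6 CPM, and the log2 fold change was -0.27 without WT replicate 1 and -0.26 without KO replicate 2. Gria4, the AMPA subunit that Bergmann glia carry together with GluA1, had 63 to 79 counts in WT and 53 to 88 in KO and a log2 fold change of -0.12 (SE 0.20). Gria3 had 15 to 26 counts in WT and 18 to 24 in KO and a log2 fold change of 0.06 (SE 0.30). Both of these overlapped between the genotypes.

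The share of Gria1 among AMPA subunits overlapped between the genotypes. It made up 62.5% ± 4.35 of the counts of the 4 genes (WT) against 61.2% ± 0.839 (KO; SD, n = 3 each), from 58.0% (Wilson 95% interval 53.0% to 62.8%) in WT replicate 1 to 66.7% (62.1% to 71.1%) in WT replicate 2. Per kilobase of exon Gria1 stood at 55.1 CPM, Gria4 at 16.2, Gria2 at 4.80 and Gria3 at 2.83, as means of the 6 libraries. Gria1 was first of the 40 members on this scale, ahead of Nptx1 at 24.9 and Cnih2 at 21.5 CPM per kilobase. The ranking stands for exon of all annotated isoforms and would shift with the isoform used.

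Summed over the 4 subunits, AMPA receptor genes had 551 to 628 CPM in the WT libraries and 453 to 531 CPM in the KO libraries, which did not overlap. With library sizes taken as all uniquely aligned reads the ranges met. Summed markers of astrocytes and Bergmann glia, cells that express GluA1 and GluA4, were also lower in KO. The 8 markers had 746 to 889 CPM in WT and 483 to 687 CPM in KO, with 6 of 8 below 0 and none at 0 counts. The largest falls in mean CPM, WT against KO, were those of S100b (222 against 133) and Slc1a3 (369 against 298), while Gdf10 and Aqp4 lay above 0. As log2 fold changes, Aldh1l1 lay lowest at -0.95 (SE 0.39, edgeR adjusted p 0.987), then S100b at -0.74 (SE 0.22, edgeR adjusted p 0.916). Slc1a3 lay at -0.31 (SE 0.16). Only S100b, 1 of the 8, did not overlap between the genotypes. The part of these cells in the AMPA values was not tested. In bulk tissue, fewer cells of a type and less RNA per cell cannot be told apart.

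NMDA receptor genes were read weakly, and of the 6 members 2, Grin1 and Grin3a, had enough counts to be tested. Grin1 itself averaged 40.4 ± 7.13 CPM (WT) against 34.9 ± 16.4 CPM (KO; SD, n = 3 each), and the log2 fold change was -0.18 (SE 0.32). Grin3a, a subunit that lowers calcium permeability, had 30, 24 and 37 counts (WT) against 39, 32 and 15 (KO), so that KO replicate 3 alone lay below WT. Its log2 fold change was -0.13 (SE 0.29), and 0.13 without KO replicate 3. Grin2c, the GluN2 subunit of mature granule cells, had 2 to 12 counts in WT and 8 to 12 in KO. Grin2b, the GluN2 subunit prominent early in development, had 3 or 4 counts in WT and 4 to 7 in KO, and Grin2d had 2 to 8 and 5 to 11. Grin2a had 0 counts in all 6 libraries. None of the Grin2 genes could be tested. The class as a whole had 95.3 to 115 CPM in WT and 88.7 to 136 CPM in KO.

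Kainate receptors, which shape slow synaptic currents and act presynaptically as well, were represented mainly by Grik3. It encodes GluK3 and had 34, 33 and 31 counts (WT) against 21, 46 and 30 (KO). The KO libraries spread on both sides of WT, and the log2 fold change was -0.03 (SE 0.30, 95% interval -0.66 to 0.59). Grik1 and Grik5 had 38 and 47 counts over all libraries, Grik2 had 27 and Grik4 had 9, all below the limit for testing. The summed class had 68.1 to 85.9 CPM in WT and 63.5 to 101 CPM in KO.

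Grid2ip encodes delphilin, a scaffold of delta receptors at parallel fibre synapses of Purkinje cells. It had 8, 11 and 11 counts (WT) against 12, 5 and 13 (KO), and a log2 fold change of -0.03 with an interval from -0.92 to 0.85. Grid1, which encodes the delta receptor GluD1, had 17 counts in all.

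None of the 4 metabotropic members could be tested. Grm4, the presynaptic mGluR4 of granule cell axons, led them with 9, 3 and 4 counts (WT) against 18, 4 and 7 (KO). Grm7, another presynaptic receptor, had 34 counts in all, Grm5 had 7 and Grm8 had 4.

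MAGUK scaffolds stood furthest apart between the genotypes among the scaffold families, without a call. Dlg4 encodes PSD-95, the main scaffold of excitatory synapses in the forebrain, which in the cerebellum is also found in basket cell terminals (chromosome 11, 70016942 to 70047522, plus strand). It had 59, 48 and 49 counts (WT) against 41, 29 and 28 (KO), or 76.7 ± 10.3 CPM and 46.5 ± 4.83 CPM (SD, n = 3 each). The highest KO library, replicate 1 at 52.1 CPM, lay below the lowest WT library at 69.0 CPM. The log2 fold change was -0.71 (SE 0.22, 95% interval -1.18 to -0.24, 0.611-fold), the unadjusted p was 0.00523, rank 22 of 5320, and the edgeR adjusted p was 0.916. Leaving out each library in turn gave -0.81 to -0.61.

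Dlg2 encodes PSD-93, the PSD-95 relative found in Purkinje cells (chromosome 7, 90476672 to 92449247, plus strand). It had 42, 42 and 45 counts (WT) against 19, 39 and 30 (KO), or 63.3 ± 0.300 CPM and 43.2 ± 17.4 CPM (SD, n = 3 each). All KO libraries lay below WT, KO replicate 2 narrowly so and KO replicate 1 by far the most. The log2 fold change was -0.57 (SE 0.28, unadjusted p 0.0556, edgeR adjusted p 0.987), with a range of -0.85 to -0.27 leaving out each library, the weakest without KO replicate 1. The spread within WT was smaller than counting error at these counts, which is 16.6% for the mean count.

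Dlg3, which encodes SAP102, had 13, 10 and 8 counts (WT) against 3, 4 and 9 (KO) and was not tested. Dlg1, which encodes SAP97, had 11, 18 and 11 counts (WT) against 24, 13 and 8 (KO) and a log2 fold change of 0.12 (SE 0.38). KO replicate 1, at 30.5 CPM, lay above all WT libraries, while KO replicates 2 and 3, at 19.4 and 12.7 CPM, lay below the WT mean of 19.7 CPM. Summed over the 4 genes, MAGUKs had 159 to 187 CPM in WT and 111 to 127 CPM in KO, with no overlap under any of the 5 scalings tried. The KO mean was 67.8% of the WT mean. This was not particular to MAGUKs. The summed neuronal pentraxins, at 137 to 157 CPM in WT and 117 to 131 CPM in KO, did not overlap under any of these scalings either. Such sums hold genes chosen with these results in view and carry no test. Purkinje cell markers in the same libraries summed to 2544 to 3193 CPM in WT and 1915 to 2545 CPM in KO over 9 markers, with the ranges just meeting. Of these, 6 lay below 0 and none was at 0 counts. Itpr1 alone made up most of the sum, with means of 1730 CPM (WT) and 1250 CPM (KO), while Pcp2, Itpka and Ppp1r17 lay above 0. Molecular layer interneuron markers (6 genes, 4 tested and all 4 below 0, none at 0 counts) had 312 to 352 CPM in WT and 274 to 323 CPM in KO. Sorcs3 and Gad1, which held most of this sum, had log2 fold changes of -0.03 each (SE 0.18 and 0.19). Kit lay at -0.19 (SE 0.26) and Tfap2b at -0.77 (SE 0.31, edgeR unadjusted p 0.0242, adjusted p 0.987). The part of either cell type in the MAGUK values was not tested.

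**Figure D3:**
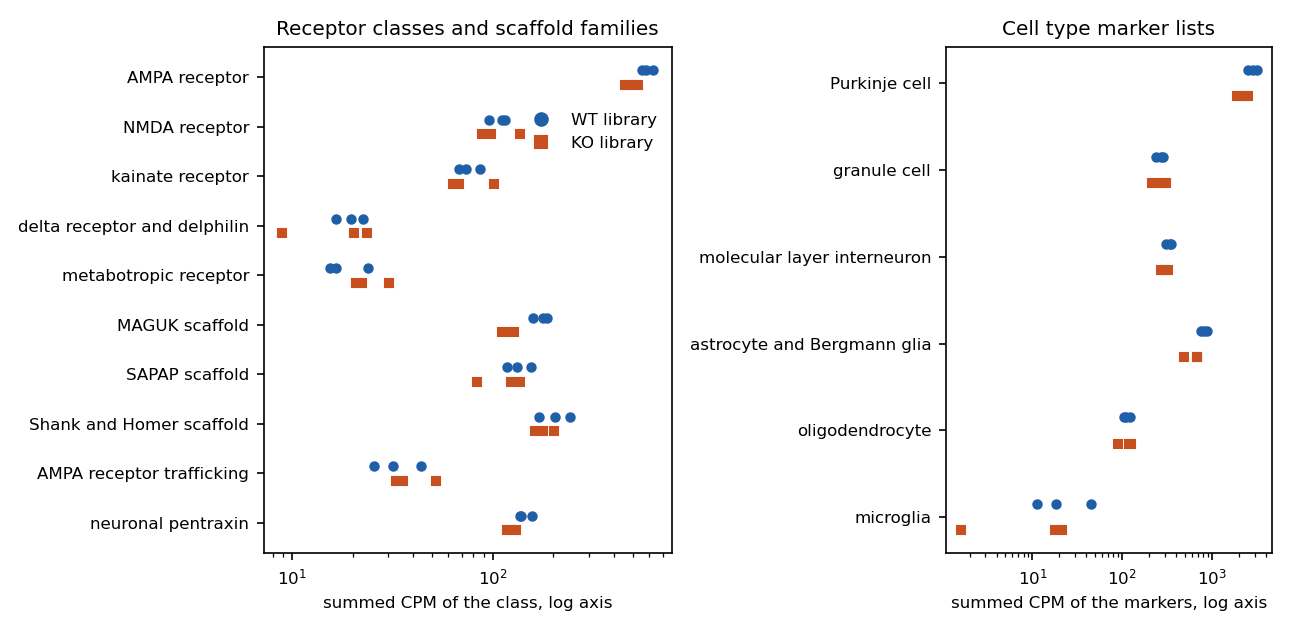
Summed CPM (x, log axis) of each receptor class and scaffold family (left) and of cell type marker lists (right) in the 3 WT (circles) and 3 KO (squares) libraries. MAGUK scaffolds lie at 159 to 187 CPM in WT and 111 to 127 CPM in KO, and astrocyte and Bergmann glia markers at 746 to 889 and 483 to 687 CPM.

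SAPAP genes overlapped between the genotypes. Dlgap1, the SAPAP most counted here, had 37, 58 and 48 counts (WT) against 51, 24 and 34 (KO), with a log2 fold change of -0.44 (SE 0.26, unadjusted p 0.107, edgeR adjusted p 0.987). KO replicate 2 was lowest and WT replicate 2 highest, and without KO replicate 2 the log2 fold change was -0.24. Dlgap4 had 33, 31 and 35 counts (WT) against 32, 25 and 30 (KO) (log2 fold change -0.22, SE 0.24), and Dlgap3 had 9 to 13 and 6 to 22 (0.32, SE 0.43). Dlgap2 had 1 count in all.

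Shank2 encodes the Shank protein of Purkinje cell spines. It had 39, 56 and 28 counts (WT) against 32, 33 and 28 (KO), and WT replicate 3 lay below all KO libraries at 39.4 CPM. The log2 fold change was -0.44 (SE 0.27, edgeR adjusted p 0.987), and it was -0.13 without WT replicate 2. Shank1 averaged 82.2 ± 15.5 CPM (WT) against 76.6 ± 12.6 CPM (KO; SD, n = 3 each), and the log2 fold change was -0.10 (SE 0.22), with the opposite-strand partner given above. Shank3 had 37 to 44 counts in WT and 28 to 59 in KO and a log2 fold change of -0.07 (SE 0.25). Homer1 had 16 counts over all libraries, while Homer3 averaged 497 ± 42.7 CPM (WT) against 502 ± 9.08 CPM (KO; SD, n = 3 each).

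Proteins that carry AMPA receptors to the membrane or anchor them there were read through Cnih2, a cornichon that binds AMPA receptors. Cnih2 had 13, 18 and 24 counts (WT) against 22, 19 and 25 (KO) and a log2 fold change of 0.23 (SE 0.30, 95% interval -0.40 to 0.87), which was 0.043 without WT replicate 1, 0.43 without WT replicate 3 and 0.062 without KO replicate 3. Grip1 and Pick1, PDZ proteins that bind the GluA2 tail, had 16 and 6 counts in all, and Cnih3 had 9. Neuronal pentraxins gather AMPA receptors from outside the cell. Nptx1 had 90, 102 and 88 counts (WT) against 99, 82 and 74 (KO), or 138 ± 15.4 CPM and 122 ± 4.31 CPM (SD, n = 3 each). The log2 fold change was -0.18 (SE 0.17), or -0.087 without WT replicate 2, and WT replicate 3 lay within the KO range. Nptxr had 2, 2 and 9 counts (WT) against 4, 2 and 0 (KO), and Nptx2, an activity-induced pentraxin, had 0 counts in all 6 libraries.

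**Figure D4:**
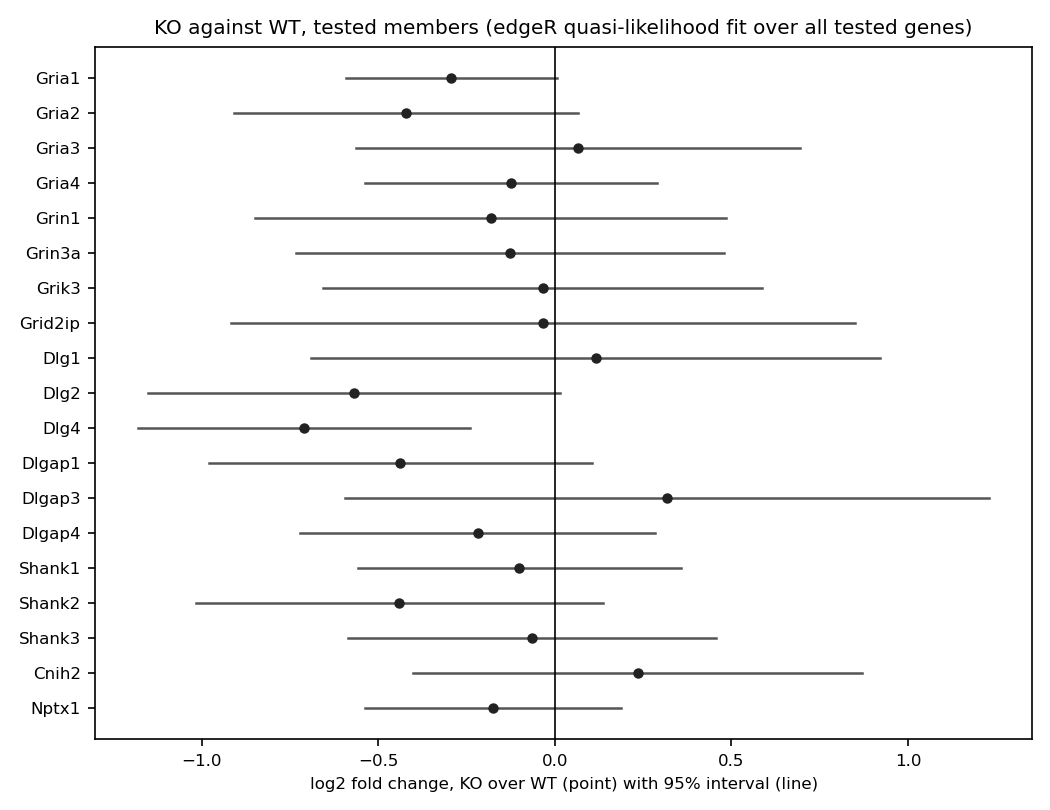
Log2 fold change, KO over WT (x), of the 19 tested members (y), with points for the edgeR estimate and lines for its 95% interval. The interval of Dlg4, -1.18 to -0.24, is the only one that leaves out 0, and after adjustment over 5320 genes no member passed.

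Further genes of the glutamatergic synapse were read from 5 lists, of which 0 members passed. Among 6 remaining receptors, of which 3 were tested, Grin3b was the only one at an unadjusted p under 0.05: it had 173, 164 and 196 counts (WT) against 239, 210 and 219 (KO), with no overlap in CPM and a log2 fold change of 0.30 (SE 0.14, unadjusted p 0.046, edgeR adjusted p 0.987), and it is the gene with Tmem259 on the other strand. Summed over these 6 receptors, KO lay above WT without overlap, at 372 to 411 CPM in WT and 417 to 472 CPM in KO. Grin3b held most of that sum, with means of 261 CPM (WT) and 321 CPM (KO). Auxiliary subunits of AMPA and kainate receptors had 3 of 15 tested, 2 below 0 and 1 above, and a median of -0.37. Cacng2, which encodes stargazin, had 65, 45 and 52 counts (WT) against 58, 34 and 35 (KO) (log2 fold change -0.40, SE 0.23), and Shisa6, another AMPA receptor partner, lay at -0.37 (SE 0.38). Frrs1l, a protein of AMPA receptor assembly, lay at 0.10 (SE 0.29). It is named outside the rule, after its values were seen.

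Further scaffolds and signalling proteins had 9 of 25 tested, 6 below 0 and 3 above, and a median of -0.08. Camk2a, a kinase subunit of the postsynaptic density, had 22, 22 and 18 counts (WT) against 17, 16 and 13 (KO), with no overlap in CPM (log2 fold change -0.47, SE 0.29, unadjusted p 0.13). Extracellular organizers had 2 of 11 tested, with Cbln1, a cerebellin secreted by granule cells, at -0.0004 (SE 0.34) and Cbln3 at 0.00076 (SE 0.19).

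Genes of glutamate transport and supply had 7 of 11 tested, all 7 below 0, with a median of -0.13. Slc38a1, a glutamine transporter, had 163, 150 and 143 counts (WT) against 128, 101 and 114 (KO), with no overlap in CPM and a log2 fold change of -0.45 (SE 0.16, unadjusted p 0.0105, edgeR adjusted p 0.916). Slc1a2, the glial glutamate transporter GLT-1, had 164, 181 and 125 counts (WT) against 138, 123 and 110 (KO) (log2 fold change -0.38, SE 0.17, unadjusted p 0.0382, edgeR adjusted p 0.987), with overlap between the genotypes.

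The authors' deposited DESeq table listed a p for 38 members, of which 1 was under 0.05, beside 1.86% of genes. For the authors' deposited edgeR table this was 1 of 40, beside 1.90%. It was Dlg4 each time: KO over WT stood at 0.620-fold (p = 0.0105) in the authors' deposited DESeq table, and WT over KO at 0.69 on the log2 scale (p = 0.00406) in the authors' deposited edgeR table. Dlg3 had p = 0.0779 in the authors' deposited DESeq table, with a fold of 0.538. These tables rest on the same 6 libraries and the same counts.

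Summed markers of the remaining cell types were highest for granule cells and at 0 for blood. Granule cell markers had 235 to 282 CPM in WT and 217 to 311 CPM in KO over 8 genes, 4 above and 4 below 0. Of these 8, 1 did not overlap between the genotypes: Gabrd, higher in KO (log2 fold change 0.69, SE 0.27, edgeR unadjusted p 0.0205, adjusted p 0.987). Oligodendrocyte markers had 105 to 121 CPM in WT and 90.9 to 126 CPM in KO over 6 genes. Microglial markers summed to 1.58 to 45.0 CPM per library over 4 genes, and the endothelial sum was at most 20.3 CPM over 3 genes. All 4 haemoglobin genes were at 0 counts, and of the choroid plexus markers Folr1 was at 0 counts and Ttr was below the floor of 3 counts in every library.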

How the data were processed

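TRIzol RNA of 6 libraries went through a TruSeq mRNA kit, per the labels' protocols. Per the submitters' processing notes, the authors used TopHat, HTSeq 0.9.1, DESeq and edgeR with GRCm38 (mm10); the sources used here do not name the annotation or strand setting. Whole-number counts for each gene symbol were deposited. The 5 HTSeq rows without a gene (on average 98.8% of uniquely aligned reads fell in no gene) entered neither library sizes nor tests here, but stand in both of the authors' deposited tables. The authors' deposited DESeq table gives normalised mean signal, a ratio (fold, KO over WT) and a p-value; the authors' deposited edgeR table gives a log2 ratio (WT over KO) and a p-value.

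KO was tested against WT by the quasi-likelihood test of edgeR 4.0.16 (R 4.3.3; glmQLFit, then glmQLFTest; TMM, filterByExpr with a minimum count of 10, Benjamini-Hochberg over 5320 genes). Standard errors and 95% intervals come from the quasi-likelihood F statistic. Alternatives used DESeq2 1.42.0, limma-voom (limma 3.58.1), the edgeR exact test, other scalings and filters, a replicate block and left-out libraries. Pairs of libraries differed beyond counting noise (chi-square per degree of freedom at least 2.30), and all were kept. In 5 simulations with 200 of 5320 genes changed, the test of KO against WT recovered 54.4% of 2-fold and 95.3% of 4-fold changes in the members' range of counts.

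Positions and exons come from GENCODE M21, where 23334 of 24421 symbols (95.5%) matched 1 gene. Genes named in full are the 8 tested members of lowest p and the most counted member of each class, and of the further lists those with an unadjusted p under 0.05, or else the 2 of lowest p; some genes of these lists are not reported here. The members, lists and rules were chosen with earlier results of these data known.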

Additional observations from a re-analysis of the deposited data

Results flagged for a closer look

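Outside the main measurement, on average 98.8% of the uniquely aligned reads were assigned to no gene, and the tables give only their total.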

How the results depend on the processing

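Every alternative called 0 members. The number of genes called was 0, except 6 with no filter on low counts, 1 when the pair of libraries with Y-linked counts was dropped, and 0 to 1 when each library was left out (1 without WT replicate 3). The cause was not tested. The median log2 fold change of the tested members was -0.127, and -0.34 with the CPM filter (at least 50 CPM in 3 libraries), which left 9 members. Dlg2, Dlg4, Gria2, Dlgap1 and Shank3 reach 3 libraries only by counting WT, where their means are higher, so this median supports nothing. It was -0.287 without the pair with Y-linked counts and -0.266 to -0.101 with each library left out. Gria1, Gria2, Dlg2, Dlg4, Dlgap1, Dlgap4, Shank2, Nptx1 and Cnih2 kept their sign in every alternative in which they were tested. Leaving out each library turned the sign of Grin3a (-0.32 to 0.13), Grik3 (-0.40 to 0.27), Grid2ip (-0.34 to 0.26) and Shank1 (-0.21 to 0.061), and Grin3a lay at 0.25 without the pair with Y-linked counts. The replicate block called 0 genes and 0 members, with 287 genes and 3 members (Gria1, Dlg2 and Dlg4) at an unadjusted p under 0.05; deviations of equal numbers correlated at 0.143, 0.0795 and 0.122 and all 6 libraries correlated best with their own number, but no label gives a pairing, so equal numbers were not treated as pairs. Genes at an unadjusted p under 0.05 numbered 246, but 96 by DESeq2, 638 without a filter and 90 with that of CPM. The 21 members below the limit for testing had too few counts for a fold change; why their counts are low was not tested.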
